A study of Mus musculus with 6 samples.

Results

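The genes described here encode potassium, transient receptor potential (TRP), chloride and sodium channels, with the hyperpolarisation-activated (HCN), acid-sensing, anoctamin, Piezo and P2X families and several of their auxiliary subunits. They were taken by a pattern of gene symbols that used no measured value, and numbered 151 of the 17491 genes listed. The pattern was chosen with earlier results of these data known. The symbol pattern also took in Trpc4ap, which encodes a TRPC4-associated protein, and Trpc5os, named for the strand opposite Trpc5; neither is a channel by name. RNA had been sequenced from osteoblasts that were differentiated from wild-type mouse mesenchymal stem cells of tibial and femoral marrow. All cultures had received osteogenic medium with 15% serum, dexamethasone, 5 mM β-glycerophosphate and 50 µg/mL ascorbic acid until day 7. The 6 libraries comprised 3 labelled control and 3 labelled verapamil-treated. The labels state no dose of the drug, no duration, and no age or strain of the mice. What separates one replicate from another (a culture, an animal) is also unstated, so the spread that p-values rest on may be technical. The series text speaks of 3 pairs, and the main test does not pair the libraries.

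Ion channels set the membrane potential and the calcium, proton and chloride traffic of a cell. Potassium channels hold the membrane negative, and thereby govern how often voltage-gated calcium channels open. TRP and Piezo channels pass cations in response to stretch, osmotic strength or lipids, and P2X receptors do so in response to extracellular ATP. Bone cells sense load partly through Piezo1, while osteoclasts need the lysosomal transporter encoded by Clcn7 to dissolve mineral. Verapamil blocks L-type calcium channels, and is also known to block the potassium channel encoded by Kcnh2.

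Of the 151 channel genes, 75 had enough reads to be tested and 76 did not. Levels are in CPM, read counts relative to library size after scaling for library composition. Changes are log2 fold changes, positive where verapamil was higher, each with a standard error (SE). Tests are edgeR's quasi-likelihood test across 13366 genes with Benjamini-Hochberg adjustment, called at an adjusted p under 0.05. With verapamil, 10 of the 75 rose and 19 fell, which is 13.3% and 25.3%, where 15.4% and 16.3% of all genes tested rose and fell. These shares of all genes also stand beside the family counts given below, which rest on 14 tested genes or fewer each. Changes of at least 1 on the log2 scale were called upward for 1 channel gene, where 1.17% of all genes were, and downward for 8 (10.7%), where 2.87% of all genes were. All verapamil values lay above all control values in 15 of the 75 channel genes and below them in 23 (30.7%), where 25.2% and 24.4% of all genes tested did so. The median log2 fold change was -0.06 over the channel genes tested and 0.01 over all genes tested. Without composition scaling, using library totals alone, 14 rose and 15 fell, so that 48.3% of the calls were upward in place of 34.5%. Calls over all genes moved the same way, from 2055 up and 2180 down to 2829 up and 1615 down. Without control replicate 1, 10 fell, and leaving out verapamil replicate 1, 2 or 3 gave 11, 9 or 12. Falls over all genes dropped too under these omissions, from 2180 to 1455, 1222, 1226 and 1393. On omitting control replicate 3, 17 rose, and on omitting verapamil replicate 2, 6 rose, where 2452 and 1010 of all genes rose. Of the 29 calls, 14 held without each library in turn. The share of calls over all genes that held so was not counted.

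Library totals ran from 18.2 M to 21.7 M reads, and channel genes took 0.188% to 0.216% of them. Controls differed from each other more than verapamil libraries did, with a biological coefficient of variation of 12.4% against 4.45%, and control replicate 2 stood farthest from the other controls. The osteoblast label was checked against 14 defining markers, all of them detected and tested. Of these, 11 fell with verapamil, and the summed level of the 14 was 45003 to 57338 CPM in controls and 27330 to 27445 CPM in verapamil libraries. The largest parts of the control sum were Col1a1 (means of 17067 and 5387 CPM) and Col1a2 (14680 and 6034 CPM). Spp1, also abundant, did not pass (9785 and 11651 CPM). Of 16 macrophage markers, all tested, 11 rose and the other 5 did not pass. Their sum went from 7613 to 10030 CPM in controls to between 14640 and 16712 CPM with verapamil, and none was at 0. Lyz2, at means of 5536 and 11197 CPM, was the largest part of that sum. Lymphocyte markers summed to at most 0.316 CPM in any library. Chondrocyte markers fell in 5 of 5 tested, from sums of 283 to 666 CPM to sums of 103 to 144 CPM. The part of these cell types in the channel results was not tested, and in bulk RNA fewer cells of a type and less RNA per cell cannot be told apart.

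Levels were also taken relative to transcript length, for the channel genes described here. The mechanically gated Piezo1 stood at 42.3 ± 3.16 and 34.3 ± 1.64, and Ano6, a calcium-activated lipid scramblase, at 38.2 ± 4.46 and 42.2 ± 0.450 CPM per kilobase. Piezo1 and Ano6 levels lay within their spread of each other in controls, as did those of Ano10 (33.5 ± 3.09) and Trpc4ap (33.4 ± 1.12). P2rx4 came next at 29.4 ± 0.711, then Clcn7 at 22.8 ± 0.760. Potassium channel pore subunits were scarcer: the highest was Kcnj15, at 14.5 ± 3.23 CPM per kilobase in controls and 9.04 ± 0.764 with verapamil, and Kcnk13 followed at 8.999 ± 0.865 and 13.4 ± 1.18. The length used is that of the longest annotated transcript, which may not be the one these cells make.

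**Figure D1:**
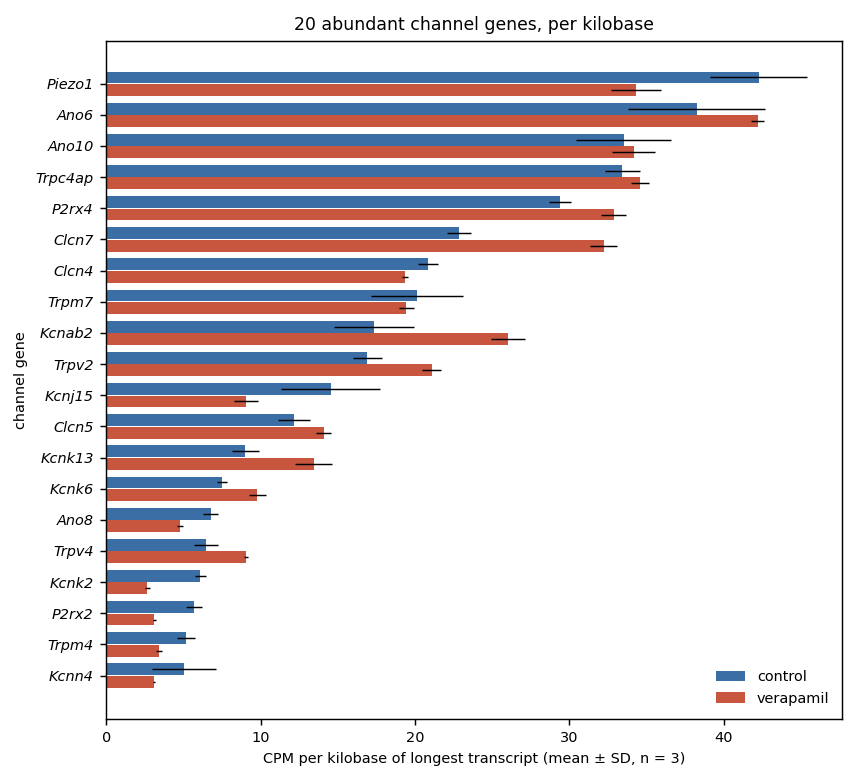
Mean level of 20 abundant channel genes among those described, ordered by control level, in CPM per kilobase of longest transcript; blue bars are control, red bars verapamil, and lines are the SD over 3 libraries. Piezo1 is at 42.3 in control and 34.3 with verapamil, and Clcn7 rose from 22.8 to 32.2 while Kcnj15 went from 14.5 to 9.04.

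Genes for voltage-gated potassium channel pores were called in the downward direction alone by edgeR, DESeq2 and limma-voom. Of 14 tested, 6 fell, 0 rose and 8 did not pass, and their median log2 fold change was -0.46. At an unadjusted p under 0.05, 0 were higher. Levels were low, with summed levels of 53.5 to 60.4 CPM in controls and 40.4 to 44.4 CPM in verapamil libraries over the 35 genes listed. Kcnf1 encodes a silent subunit that forms channels only together with other Kv subunits. Its 3 control values of 1.78, 1.66 and 1.10 CPM all lay above the verapamil values of 0.266, 0.271 and 0.225 CPM (log2 fold change -2.55 ± 0.33 SE, adjusted p = 0.00113). Kcnf1 kept its call without each library. Its verapamil values were near the limit of detection, and it had enough reads to be tested only through its controls, where it was high.

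Kcnh2, the channel of the rapid delayed rectifier current of the heart (Entrez 16511, chr5:24319589-24351684), was at 4.84, 5.07 and 6.06 CPM in controls and at 2.34, 2.53 and 1.98 CPM with verapamil. It dropped by 1.22 ± 0.16 SE in log2 terms (adjusted p = 0.00124), with tight values in both groups, and held its call without each library. The neighbouring Kv1 genes Kcna1 and Kcna6 fell too. Kcna1 was at 3.99, 2.78 and 3.12 CPM in controls and at 0.744, 1.89 and 1.57 CPM with verapamil (-1.21 ± 0.30 SE, adjusted p = 0.0172). Kcna6 was at 1.88, 1.39 and 1.75 CPM, then 0.585, 1.17 and 0.943 CPM (-0.88 ± 0.28 SE, adjusted p = 0.0439), and an antisense gene overlaps 2355 bases of its exons. In both genes verapamil replicate 1 was the lowest library. Kcna6 is the weakest of these calls: it was lost without any 1 library except control replicate 2 (adjusted p = 0.0530 to 0.141). The call of Kcna1 was also lost, on omitting control replicate 1 or verapamil replicate 3 (adjusted p = 0.0509 to 0.0789).

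Among the pore genes that did not pass, Kcnh1, an ether-à-go-go channel, was at 18.2 ± 4.77 and 16.4 ± 0.530 CPM (-0.16 ± 0.18 SE), Kcnd1 of the A-type current at 6.66 ± 1.90 and 6.40 ± 0.367 CPM, and Kcnh6 at 3.29 ± 0.308 and 3.73 ± 0.242 CPM. Because many of these channels are best known from neurons, neuronal markers were read beside them. Of 8, only Tubb3 and Stmn2 were tested and both fell; the summed level was 11.5, 17.5 and 6.71 CPM in control replicates 1, 2 and 3 and 3.43 to 4.63 CPM in verapamil libraries. Elavl4, Nefl, Rbfox3 and Snap25 were at 0.0939 CPM or below in every library and at 0 in 4 or 5 of the 6, and Nefm and Syt1 reached at most 0.180 CPM. The part of Tubb3- and Stmn2-expressing cells was not tested.

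Auxiliary subunits of these channels were more abundant and went the other way in one case. Kcnab2, a cytoplasmic β subunit of Kv1 channels, was at 62.5, 61.9 and 79.8 CPM in controls and at 103, 106 and 97.6 CPM with verapamil. It rose by 0.58 ± 0.10 SE (adjusted p = 0.00404) and kept its call without each library. Kcne3, a single-pass subunit, was at 1.67 ± 0.0748 and 1.10 ± 0.0677 CPM (-0.61 ± 0.20 SE, adjusted p = 0.0465), a fall that did not pass without any 1 of the 6 libraries (adjusted p = 0.0693 to 0.144). The other 5 tested did not pass, among them Kcnab1 (10.8 ± 1.56 and 13.4 ± 0.486 CPM, adjusted p = 0.0657), Kcne4 (5.79 ± 0.991 and 8.26 ± 2.03 CPM) and Kcnip4 (6.53 ± 0.956 and 6.47 ± 0.748 CPM).

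**Figure D2:**
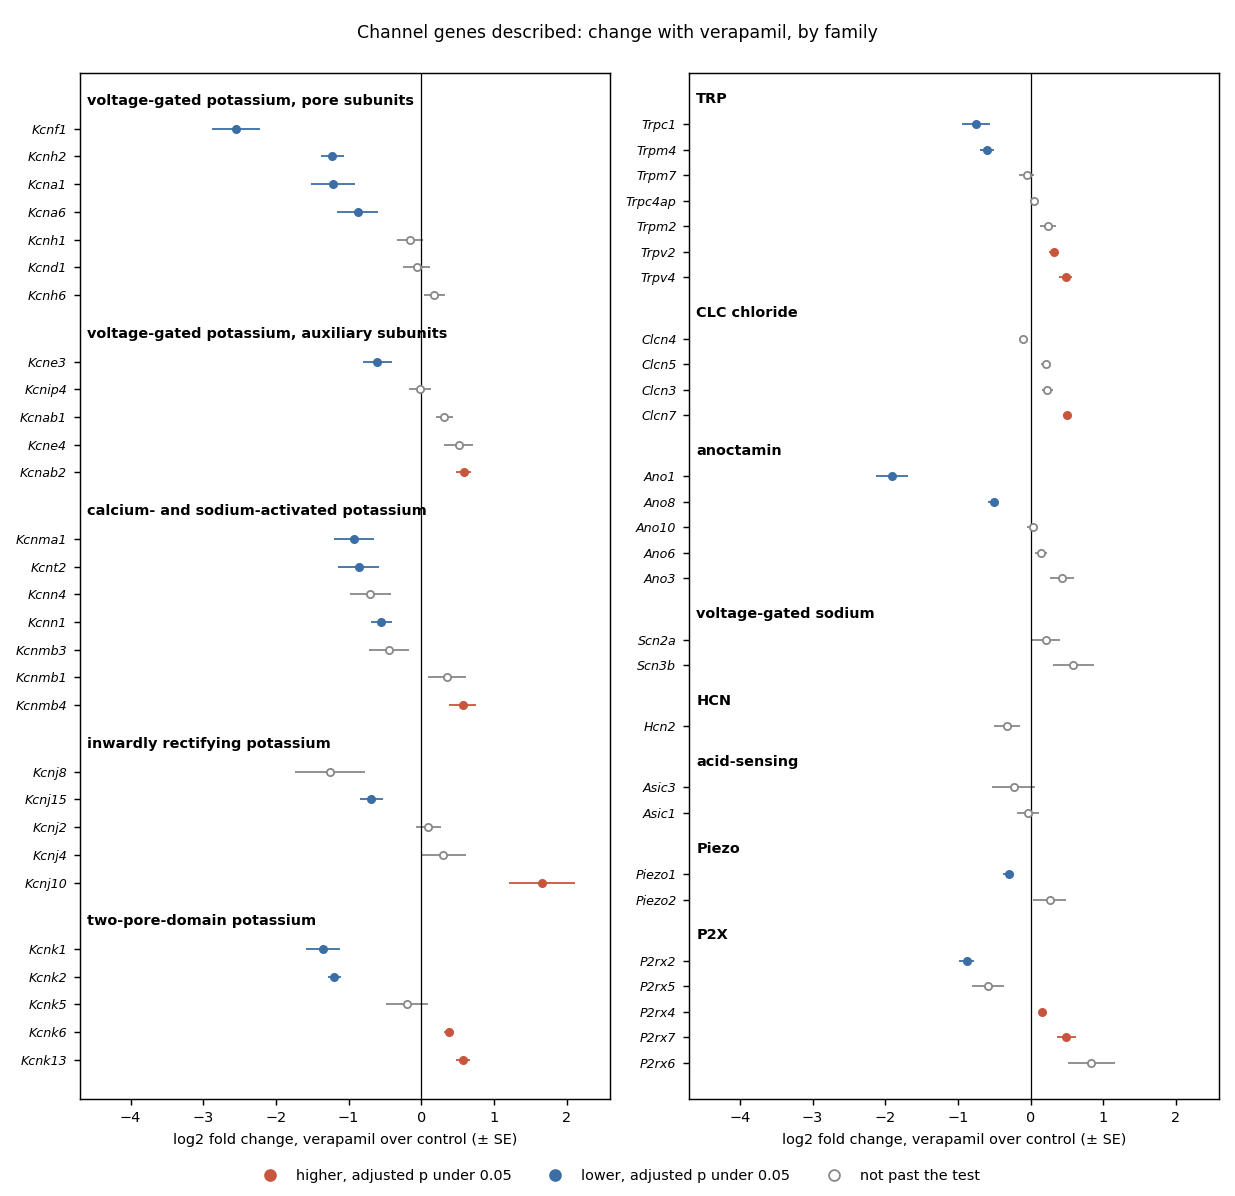
Log2 fold change of verapamil over control with its SE for 57 of the 75 channel genes tested, those described in the text, grouped by family; filled red and blue points passed the test upward and downward, open grey points did not. In the voltage-gated potassium pore family 4 filled points lie below 0 and 0 above.

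Potassium channels opened by calcium or sodium fell in 3 of 7 genes tested, and 1 rose. Kcnma1, the pore of the large-conductance BK channel, was at 3.85, 2.14 and 3.58 CPM in controls and at 1.65, 1.26 and 2.16 CPM with verapamil (-0.92 ± 0.28 SE, adjusted p = 0.0361). It was the 1 called channel gene whose groups overlapped, since control replicate 2 lay below verapamil replicate 3. Kcnmb4, a β subunit of the same channel, rose from 1.74, 1.44 and 2.02 to 2.45, 2.80 and 2.52 CPM (0.57 ± 0.19 SE, adjusted p = 0.0475). Kcnn1, a small-conductance channel, was at 9.77, 8.55 and 7.72 CPM and at 5.85, 5.05 and 6.87 CPM (-0.55 ± 0.15 SE, adjusted p = 0.0222), and the sodium-activated Kcnt2 at 1.17 ± 0.225 and 0.645 ± 0.143 CPM (-0.86 ± 0.28 SE, adjusted p = 0.0475). None of these 4 calls held without control replicate 1, verapamil replicate 1 or verapamil replicate 2 (adjusted p = 0.0625 to 0.164). Kcnn4, the intermediate-conductance channel of blood and immune cells, had the highest level here, at 17.1, 26.3 and 11.3 CPM in controls and 11.2, 11.4 and 10.9 CPM with verapamil. Control replicate 3 lay among the verapamil values, and Kcnn4 did not pass (-0.70 ± 0.29 SE, adjusted p = 0.108). The BK subunit genes Kcnmb1 (1.01 ± 0.196 and 1.30 ± 0.305 CPM) and Kcnmb3 (1.26 ± 0.354 and 0.931 ± 0.0492 CPM) did not pass either.

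Among inward rectifiers, which pass potassium inward more easily than outward, 1 of 5 fell and 1 rose. Kcnj15, encoding Kir4.2 (Entrez 16516, chr16:95257558-95300260), was at 97.3, 89.2 and 62.1 CPM in controls and at 55.6, 46.9 and 52.2 CPM with verapamil. All verapamil values lay below the controls, of which replicate 3 was the nearest (-0.68 ± 0.16 SE, adjusted p = 0.0190). Its close relative Kcnj10, encoding Kir4.1, was near the limit of detection at 0.188, 0.107 and 0.413 CPM and rose to 1.01, 0.722 and 0.629 CPM (1.66 ± 0.46 SE, adjusted p = 0.0258). This was the largest rise among the called channel genes, from totals of 15 reads over the controls to 49 over the verapamil libraries. Kcnj10 had enough reads to be tested only through its verapamil libraries, where it was high. The Kcnj15 call was lost without control replicates 1 or 2 or verapamil replicates 2 or 3, and that of Kcnj10 without control replicate 1 or a single verapamil library, whichever it was (adjusted p = 0.0518 to 0.102). Kcnj2, the classical strong rectifier, was at 11.4 ± 1.70 and 12.2 ± 2.81 CPM and did not pass, nor did Kcnj4 (1.09 ± 0.446 and 1.33 ± 0.188 CPM) or Kcnj8, the pore of a channel gated by ATP (0.647 ± 0.0395 and 0.258 ± 0.183 CPM, adjusted p = 0.0797).

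Two-pore-domain channels, which carry the background potassium leak, split evenly. Of 5 tested, 2 fell and 2 rose, and the 4 calls held without each library. Kcnk2, encoding the stretch- and lipid-sensitive channel TREK-1 (Entrez 16526, chr1:189207930-189402782), was at 23.0, 20.4 and 22.0 CPM in controls and at 8.83, 9.83 and 9.88 CPM with verapamil. Its groups were far apart relative to their spread (-1.19 ± 0.09 SE, adjusted p = 1.37e-04). Kcnk1, encoding TWIK-1, went from 3.95, 2.51 and 3.81 to 1.12, 1.31 and 1.57 CPM (-1.36 ± 0.24 SE, adjusted p = 0.00409). On the other side, Kcnk13, encoding THIK-1, known from microglia, rose from 27.3, 25.3 and 30.5 to 40.1, 45.4 and 38.4 CPM (0.58 ± 0.09 SE, adjusted p = 0.00286). Kcnk6, encoding TWIK-2, known from macrophages, rose from 29.9, 29.9 and 32.0 to 37.5, 42.0 and 40.2 CPM (0.38 ± 0.07 SE, adjusted p = 0.00433). Neither pair of groups overlapped. Kcnk5 was at 0.617 ± 0.0572 and 0.543 ± 0.0825 CPM and did not pass.

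Kcnk2 and Clcn7, shown with their promoters, are the called channel genes with the smallest adjusted p among those that fell and those that rose. The motifs searched for were chosen after values were seen, and the window printed for each gene is the 1 that held a match. Each window runs from 250 bases before to 50 after a RefSeq start site in GRCm38.p6, and 59 of the 75 tested channel genes had at least 1 window. Letters searched on both strands were TGACTCA, the site of the AP-1 factors Fos and Jun, and CACGTG, the E-box at the core of sites for the lysosomal regulators TFEB and TFE3; the ends of the motifs can share the letters CA, but no channel gene window held both. Kcnk2 held TGACTCA in 1 of its 4 windows, 126 bases before the start (chr1:189344143-189344442, minus strand, capitals mark the match). Clcn7 held CACGTG at 2 places in 1 of its 2 windows, beginning 15 bases before and 7 bases after the start (chr17:25133141-25133440, plus strand, capitals likewise).
Kcnk2: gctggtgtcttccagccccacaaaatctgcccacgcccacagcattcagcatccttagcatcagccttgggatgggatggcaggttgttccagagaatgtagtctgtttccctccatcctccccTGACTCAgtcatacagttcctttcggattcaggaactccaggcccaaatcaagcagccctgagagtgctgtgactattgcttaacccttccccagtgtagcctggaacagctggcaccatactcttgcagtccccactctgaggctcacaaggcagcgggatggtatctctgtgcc
Clcn7: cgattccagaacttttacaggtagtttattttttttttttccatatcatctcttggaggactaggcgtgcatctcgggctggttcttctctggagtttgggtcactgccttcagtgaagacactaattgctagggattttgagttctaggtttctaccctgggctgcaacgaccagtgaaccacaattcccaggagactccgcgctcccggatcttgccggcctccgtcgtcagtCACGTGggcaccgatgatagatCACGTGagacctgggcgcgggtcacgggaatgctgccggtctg

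Over all 32851 windows, 5.20% held TGACTCA and 7.15% held CACGTG. Among windows of channel genes that fell, 1 of 18 held TGACTCA and 0 held CACGTG, and among those of channel genes that rose, 1 of 15 held each. Over the 84 windows of tested channel genes, 3.57% held TGACTCA and 13.1% CACGTG, where windows of all tested genes gave 3.86% and 9.68%. A match describes the letters only, and binding was not measured here.

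**Figure D3:**
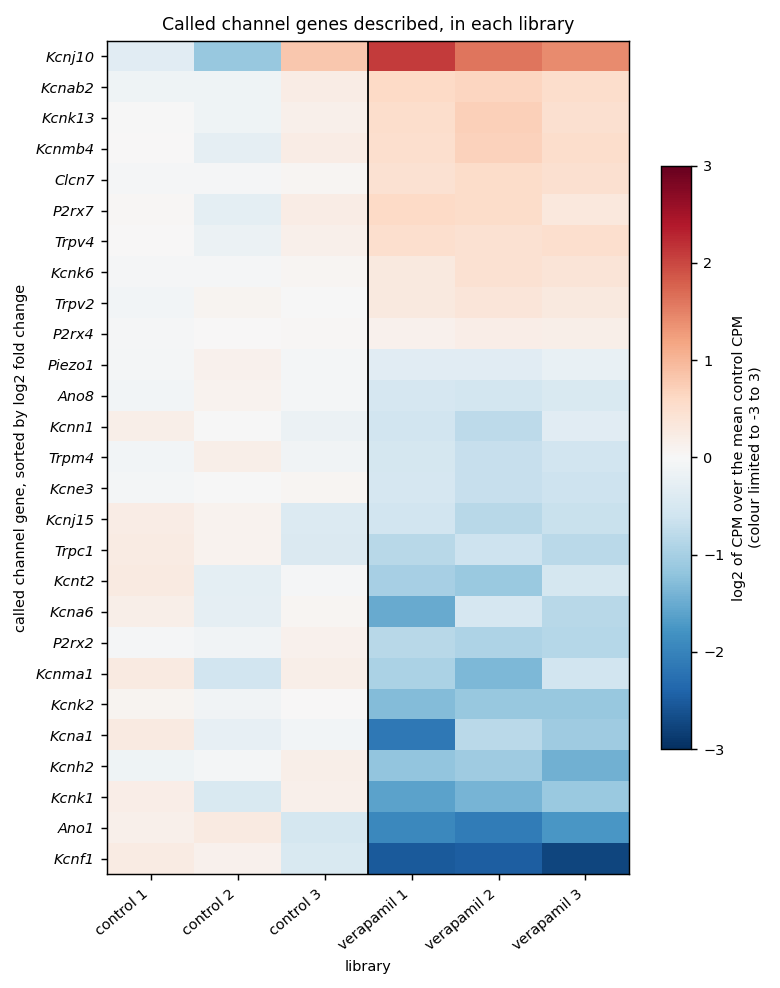
Level of 27 of the 29 called channel genes in each library, as log2 of CPM over the mean control CPM, with genes in rows sorted by log2 fold change and the 3 control and 3 verapamil libraries in columns; red is higher and blue lower, and colours stop at -3 and 3. Kcnf1 lies lowest in each verapamil column, and Kcna1 and Kcna6 are lower in verapamil replicate 1 than in the other verapamil libraries.

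TRP channels are cation channels with diverse triggers, and 2 of 10 genes tested rose, 2 fell and 6 did not pass. Trpv4, a channel opened by osmotic swelling and warmth that is mutated in skeletal dysplasias (Entrez 63873, chr5:114622152-114658435), was at 20.9, 18.4 and 23.4 CPM in controls and at 29.6, 28.8 and 29.4 CPM with verapamil (0.48 ± 0.09 SE, adjusted p = 0.00560). Trpv2, a relative that is abundant in macrophages, rose from 58.8, 65.6 and 62.0 to 75.8, 79.9 and 76.3 CPM (0.32 ± 0.06 SE, adjusted p = 0.00595). Trpm4, which passes sodium when calcium rises in the cell, fell from 20.9, 25.2 and 20.6 to 15.5, 13.7 and 14.9 CPM (-0.60 ± 0.10 SE, adjusted p = 0.00344). These 3 calls held without each library, and none of the groups overlapped. Trpc1, a subunit of receptor-operated channels, fell from 5.92, 5.45 and 3.72 to 2.82, 3.25 and 2.87 CPM (-0.75 ± 0.19 SE, adjusted p = 0.0202), a call lost on omitting control replicate 1 or a verapamil library, whichever it was (adjusted p = 0.0524 to 0.0837). Other members were not past the test: Trpm7, a magnesium-permeable channel fused to a kinase, was at 143 ± 21.1 and 138 ± 3.39 CPM, Trpc4ap at 131 ± 4.39 and 135 ± 2.25 CPM, and the oxidant-activated Trpm2 at 12.7 ± 1.84 and 15.0 ± 0.239 CPM.

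Piezo1, the mechanically gated channel through which bone cells sense load (Entrez 234839, chr8:122481698-122551329), was the channel gene with the highest CPM. Its controls were at 334, 377 and 331 CPM and its verapamil libraries at 276, 273 and 297 CPM, without overlap (-0.30 ± 0.07 SE, adjusted p = 0.0157). Omitting verapamil replicate 1 or 2 lost the call (adjusted p = 0.0714 to 0.0731). Exons of the gene Ctu2 on the other strand overlap 2441 bases of Piezo1 exons, and whether the counting used strand, which would separate their reads, is not stated. Piezo2 was at 3.35 ± 0.888 and 4.08 ± 0.810 CPM and did not pass.

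Anoctamins include calcium-activated chloride channels and lipid scramblases. Ano1, the calcium-activated chloride channel itself (Entrez 101772, chr7:144588549-144752026), was at 17.4, 19.0 and 10.9 CPM in controls and at 4.15, 3.70 and 4.72 CPM with verapamil. All verapamil libraries were below the lowest control (-1.91 ± 0.22 SE, adjusted p = 9.22e-04), and the call held without each library. Ano8, which sits at contacts of the endoplasmic reticulum with the plasma membrane, fell from 31.7, 36.1 and 32.2 to 23.4, 22.6 and 24.3 CPM (-0.51 ± 0.07 SE, adjusted p = 0.00203). The other 3 tested did not pass with edgeR. Ano6 was at 188 ± 22.0 and 208 ± 2.22 CPM, Ano10 at 88.9 ± 8.19 and 90.7 ± 3.69 CPM and Ano3 at 24.9 ± 6.07 and 33.9 ± 1.96 CPM (adjusted p = 0.0811). Ano3 alone of these had an unadjusted p under 0.05, and DESeq2 called it higher (adjusted p = 0.0337).

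CLC genes encode chloride channels of the cell surface and chloride-proton exchangers of endosomes and lysosomes, and 1 of 6 tested rose. Clcn7, the lysosomal exchanger whose loss causes osteopetrosis (Entrez 26373, chr17:25133378-25162103), was at 95.1, 94.7 and 100.5 CPM in controls and at 134, 141 and 135 CPM with verapamil. The increase was narrow in spread (0.50 ± 0.05 SE, adjusted p = 5.72e-04) and held without each library; its promoter is the second printed above. The endosomal exchangers Clcn5 (102 ± 8.83 and 118 ± 4.14 CPM, adjusted p = 0.0527) and Clcn3 (19.7 ± 1.58 and 23.2 ± 0.878 CPM, adjusted p = 0.0570) did not pass although their groups did not overlap. Clcn4 did not pass either (96.1 ± 3.03 and 89.1 ± 0.791 CPM), and its verapamil values all lay below its control values. Osteoclast markers were read beside Clcn7. Their sum was 337 to 364 CPM in controls and 316 to 342 CPM with verapamil, and of the 5 tested of 9, 1 rose (Atp6v0d2) and 2 fell. The fusion and receptor markers Dcstamp, Ocstamp and Calcr were at 0.135 CPM or below in every library.

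P2X receptors are cation channels opened by extracellular ATP. P2rx7, the receptor that triggers inflammasome signalling in macrophages (Entrez 18439, chr5:122643927-122692336), rose from 16.4, 13.1 and 18.7 to 24.5, 23.4 and 20.2 CPM (0.49 ± 0.13 SE, adjusted p = 0.0240). P2rx4, which lies 15.2 kb away, rose from 111, 115 and 117 to 125, 131 and 128 CPM, a small change (0.16 ± 0.05 SE, adjusted p = 0.0419). P2rx2 fell from 11.6, 11.1 and 13.1 to 6.70, 6.27 and 6.56 CPM (-0.88 ± 0.10 SE, adjusted p = 8.10e-04). Groups did not overlap in any of these 3 genes. The fall of P2rx2 held without each library, while the rises of P2rx7 and P2rx4 were lost without control replicate 1 or verapamil replicates 1 or 2, and that of P2rx4 also without verapamil replicate 3 (adjusted p = 0.0784 to 0.166). P2rx6 was at 3.32 ± 1.70 and 5.98 ± 0.482 CPM (adjusted p = 0.0891) and P2rx5 at 4.93 ± 1.09 and 3.28 ± 0.770 CPM (adjusted p = 0.0785).

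No call was made among the 9 sodium, HCN and acid-sensing channel genes tested by edgeR, DESeq2 or limma-voom; 1 of them had an unadjusted p under 0.05. Scn2a was at 3.61 ± 0.399 and 4.23 ± 0.994 CPM and Scn3b at 2.17 ± 0.886 and 3.31 ± 0.458 CPM. Hcn2, a pacemaker channel, was at 3.63 ± 0.786 and 2.90 ± 0.0742 CPM, Asic1, a proton-gated sodium channel, at 3.23 ± 0.270 and 3.16 ± 0.309 CPM and Asic3 at 1.15 ± 0.308 and 0.996 ± 0.243 CPM.

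**Figure D4:**
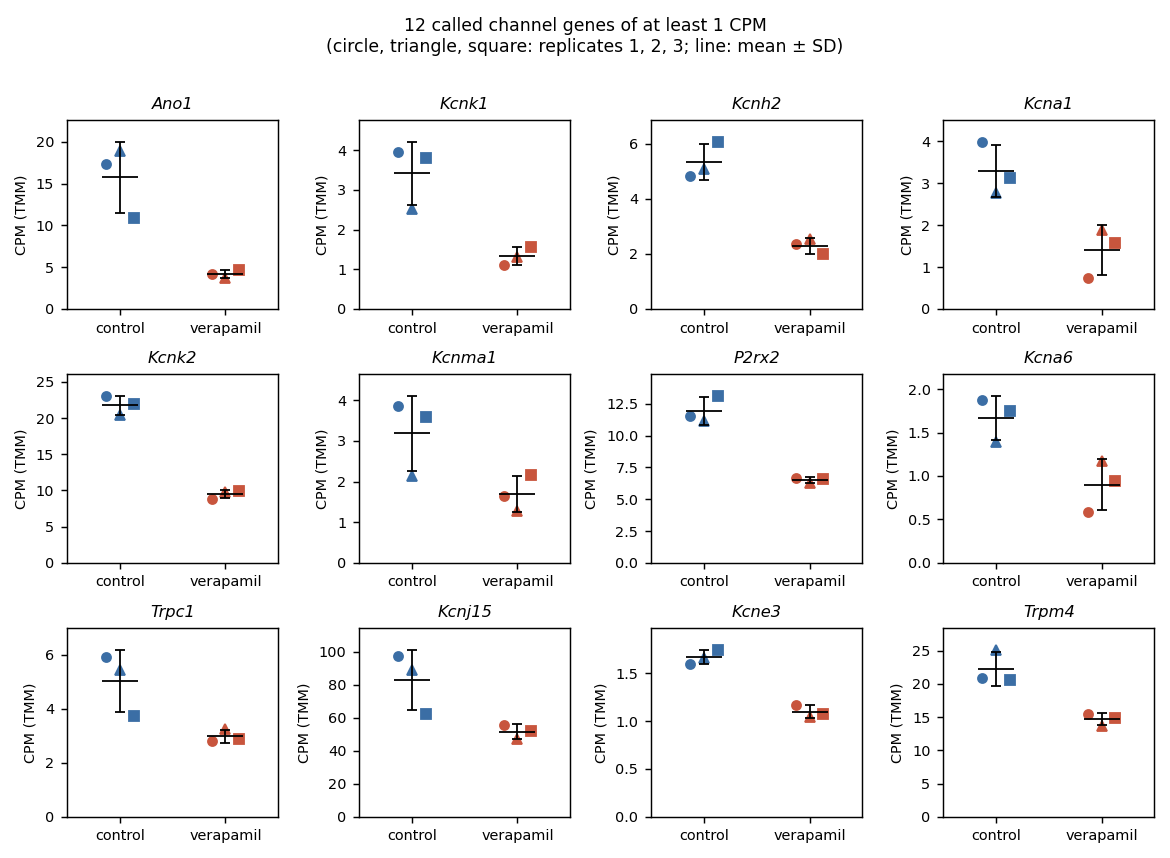
Level in each library, in composition-scaled CPM on axes that start at 0, of 12 called channel genes of at least 1 CPM, those with the largest change among the genes described; circle, triangle and square are replicates 1, 2 and 3, and the line and bar are the mean and SD. All 12 fell, and in Kcnma1 alone do the groups overlap.

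Called genes that rose had a median level of 34.9 CPM and a median log2 fold change of 0.49. Those that fell had a median level of 3.80 CPM and a median log2 fold change of -0.88, and 11 of the 19 averaged under 5 CPM. The median level was 4.01 CPM for channel genes that did not pass and 4.65 CPM for all tested channel genes. For all genes tested it was 25.9 CPM. Those that fell were thus near the usual level of channel genes, and those that rose were above it. Of 13 channel genes at 50 CPM or more, 4 rose (Clcn7, Kcnab2, P2rx4 and Trpv2), 2 fell (Piezo1 and Kcnj15) and the rest did not pass. Potassium channel genes as a whole had 13 of 38 tested lower (34.2%) and 5 higher (13.2%), with a median of -0.17. The other 37 had 6 lower (16.2%) and 5 higher (13.5%), with a median of 0.01. Of all genes tested, 16.3% were lower and 15.4% higher, near these shares except that of potassium channel falls. The 76 untested genes averaged at most 0.431 CPM, and 45 of them had fewer than 10 reads over the 6 libraries. They included 21 voltage-gated potassium pore genes, 11 TRP genes and 9 sodium channel genes. Their differences were not tested. Examples chosen as widely studied are Kcnq1, Kcna3, Trpv1 and Trpa1.

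A list of 95 related genes covered other channels, partner subunits, the sodium pump and cation-chloride cotransport. Of 62 tested members, 12 rose (19.4%) and 13 fell (21.0%) with a median of 0.04, near the 15.4% and 16.3% of all genes tested. Without control replicate 1 or verapamil replicates 1, 2 or 3 the number that fell was 6, 5, 5 and 7. Without verapamil replicate 1 the number that rose was 8. Falls over all genes dropped too, from 2180 to 1455, 1222, 1226 and 1393, and rises from 2055 to 1027 without verapamil replicate 1. Among other cation channels, 3 of 16 rose and 2 fell. The 2 that fell were the most abundant of the 5: Pkd1 went from 282 to 166 CPM (-0.76) and Pkd2 from 229 to 172 CPM (-0.41). The summed level of this list was 924 to 980 CPM in controls and 794 to 811 CPM with verapamil. The proton channel Hvcn1 of phagocytes rose from 11.4, 8.1 and 15.5 to 27.6, 30.2 and 27.2 CPM (1.27 ± 0.20 SE, adjusted p = 0.00385), and the endolysosomal mucolipins Mcoln3 and Mcoln2 rose by 1.27 and 0.79 on the log2 scale. Among other chloride channels, 5 of 17 rose and 5 fell: the acid-activated channel gene Pacc1 rose by 0.72, while Clic5 (-1.16) and the volume-regulated subunit Lrrc8e (-1.11) fell. Ostm1, the partner subunit of Clcn7, rose by 0.24 ± 0.05 SE (adjusted p = 0.00983) and was named after its value was seen. In the sodium pump and cotransport list 3 of 17 rose and 3 fell, with the kinase Stk39 (-0.68) and the cotransporter Slc12a1 (-0.62) among those that fell. Of 6 connexins and pannexins tested 1 rose and 3 fell: Panx1, the ATP-release channel of many cells, rose by 1.18, while Panx3 (-1.53), known from osteoblasts and chondrocytes, fell. No member of the potassium channel partner list (4 tested) or of the epithelial sodium channel list (2 tested) passed with edgeR; the unadjusted p was under 0.05 for 0 and 1 of them, and DESeq2 and limma-voom called 0. The highest of each, Tmem38b and Nedd4l, had log2 fold changes of 0.17 and 0.20. Calls of Lrrc8e, Stk39 and Slc12a1 were lost on omitting control replicate 1 or a verapamil library, whichever it was, and that of Lrrc8e also without control replicate 2 (adjusted p = 0.0522 to 0.126). With DESeq2 the Slc12a1 call was lost too.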

How the data were processed

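Total RNA of 3 control and 3 verapamil-treated osteoblast cultures had been sequenced from SMARTER mRNA-seq libraries, per the labels' protocols. The authors deposited 1 table of estimated counts per gene and library, called read counts per the file headers and not scaled to depth or length; 67.7% of values were not whole. The build is GRCm38 (mm10), per the submitters' processing notes; the aligner, counter, annotation and strandedness of the counting: not given in the sources used here.

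Estimated counts were rounded and filtered with filterByExpr (minimum count 10, minimum total 15), which left 13366 genes. They were scaled with TMM factors and tested with edgeR 4.0.16 in R 4.3.3 (quasi-likelihood, robust, Benjamini-Hochberg). The SE was taken as |log2 fold change| divided by the root of the F statistic. Coordinates and promoters came from RefSeq for GRCm38.p6 by Entrez ID (all 151 channel genes matched for coordinates), and transcript lengths from GENCODE. Without strand in the counting, reads of overlapping genes cannot be told apart; the opposite strand's exons overlap some of Kcnj15, Kcnk1, Kcnk2, Kcnma1, Kcnmb4 and Ano8 too.

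The naming rule took every channel gene past the test, up to 3 with the highest level that did not pass per family, and up to 3 related genes per list; values in each library are also given for genes beyond that rule. Some genes the rule took are not reported here and are left out of the figures; all counts and medians include them. Members, lists and this rule were chosen with earlier results of these data known, and the motifs and the Ostm1, Pkd1 and Pkd2 examples after seeing values. On counts simulated for verapamil against control (13366 genes, 5 draws), recovery was 70.0% at 1.5-fold and 84.2% at 2-fold, with 8.83% false calls. Each draw changed 100 genes at each fold, far fewer than the 4235 called in the data, and gave both groups the same spread. The rates cover genes of all levels, and may not hold for these data or for channel genes. Alternatives were other scalings and filters, DESeq2 1.42.0, limma-voom (limma 3.58.1), unrounded counts, a threshold of 0.01, a replicate block, and the omission of single libraries.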

Additional observations from a re-analysis of the deposited data

How the results depend on the processing

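With an adjusted p under 0.01 in place of 0.05, 6 of the 75 channel genes rose and 8 fell, and 5 related genes fell. Over all 13366 genes tested, 902 rose and 1067 fell at 0.01, in place of 2055 and 2180 at 0.05. Leaving out 1 library at a time gave 6 to 17 channel genes higher and 9 to 21 lower, and 8 to 16 related genes higher and 5 to 16 lower. The same omissions gave 1010 to 2452 higher and 1222 to 2590 lower over all genes. Of the 29 called channel genes, 14 kept the call without each library, 21 kept it under every other scaling, filter, tool and block at 0.05, and the same 14 kept it under all of these; no named gene changed direction with a call. Calls of Kcne3, Kcnmb4, Kcnt2 and P2rx4 were lost with DESeq2, without the filter and with the block, that of Kcna6 with DESeq2 and with the block, those of Kcnj10 and Piezo1 with the block alone (adjusted p = 0.0538 and 0.0548), and those of Kcne3, Kcna6, Kcnma1 and Kcnt2 with library totals alone. Among related genes named, the call of Slc12a1 was lost with DESeq2 and with the block (adjusted p = 0.0801 to 0.106), and that of Lrrc8e with limma-voom (adjusted p = 0.0514). The cause was not tested. The series text speaks of 3 pairs without saying what a pair shares. Deviations of same-numbered libraries correlated at 0.01, -0.17 and -0.13, and no library correlated best with its own number. The numbers were therefore not taken to pair the samples, though with 3 libraries per group these correlations cannot show that pairs are absent. With the replicate number as a block, 8 channel genes rose and 15 fell, and 11 and 9 related genes did. Calls over all genes were then 1364 up and 1589 down. Depth limits the 76 untested channel genes, and genes under 1 CPM rest on few reads.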

Other observations

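Several channel genes that lie side by side on GRCm38 were compared by their own calls. Within 200 kb of each other, Kcna1 and Kcna6 on chromosome 6 both fell, with a gap of 62.5 kb, and P2rx7 and P2rx4 on chromosome 5 both rose. Kcna5, 101 kb from Kcna1, had too few reads to test, as had Kcnj9, 11.9 kb from Kcnj10. Kcnh2, which fell, lies 61.8 kb from Asic3, which did not pass, and Trpm4, which fell, lies 71.9 kb from the untested Kcna7.

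Among the called channel genes, control replicate 2 was the lowest of the controls in 8 of the 10 that rose and the highest in 6 of the 19 that fell. Without that library, 12 channel genes rose and 21 fell, and over all genes 2299 rose and 2534 fell.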
